A study of Mus musculus with 6 samples.

Results

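The genes described here build and run the lysosome. They comprise 41 genes in 7 roles, which are 9 cysteine proteases, 3 other proteases, 8 glycosidases, 5 genes of lipid breakdown and related proteins, 6 membrane proteins, 3 transcription factors of the MiT/TFE family and 7 subunits of the V-ATPase proton pump. They were chosen by gene symbol from a list of lysosomal genes. Each of the 41 was found among the 17904 genes of the table, and each reached 1 FPKM or more (mapped fragments relative to transcript length in kilobases and to the library's mapped total), the level from which a gene is counted as measured below. RNA came from macrophages grown in culture from the bone marrow of C57BL/6 mice aged 8 weeks, during 5 days with M-CSF, a growth factor for this lineage. They were Setd2 knockout (KO) or wild type (WT). Setd2 encodes a histone methyltransferase whose mark lies over transcribed gene bodies. In each genotype the cells were untreated (0 h) or had received LPS, a lipid and sugar molecule of the bacterial outer membrane to which macrophages respond through TLR4, at 100 ng/ml for 12 or 24 h. The 6 groups (KO at 0, 12 and 24 h, WT at 0, 12 and 24 h) had 1 library each, so neither the values nor the differences carry an error between cultures, and none was tested. There is no untreated library at 12 or 24 h, so LPS and time in culture cannot be told apart. The labels describe neither the Setd2 allele nor the cells in which it is lost, and sharing of animals or cultures between libraries is not stated.

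The lysosome is the acidic compartment in which cells break down proteins, glycans and lipids taken up from outside or delivered by autophagy. The V-ATPase pumps protons across its membrane, the hydrolases work at the resulting low pH, and heavily glycosylated membrane proteins such as LAMP1 line the inner face. The MiT/TFE factors TFEB, TFE3 and MITF bind a short promoter element with the core CACGTG that is shared by many lysosomal genes, and the kinase complex mTORC1 at the lysosomal surface holds TFEB back while nutrients are plentiful. In macrophages the same compartment digests ingested microbes and dead cells and prepares peptides for presentation on MHC class II.

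The targeted gene was read first. Setd2 held 9.96, 9.16 and 5.11 FPKM in the libraries labelled KO at 0, 12 and 24 h, against 7.83, 8.68 and 7.51 FPKM in those labelled WT. A value for the whole gene keeps the reads of a transcript that lacks some exons, which leaves the labels unchecked, and every direction of KO against WT below rests on the labels. The column totals lay between 459001 and 582083 FPKM, and the estimated depth, for an assumed read length of 50 nt, was 21590000 to 22370000 mapped reads. As a check of the LPS response, the cytokine gene Il1b held 5.29, 1259 and 1164 FPKM in KO and 3.72, 1123 and 1133 FPKM in WT at 0, 12 and 24 h. The 7 macrophage markers summed to 1239 to 2796 FPKM in KO and 6603 to 12672 FPKM in WT, and that gap lay in Lyz2 (lysozyme), with 17.7, 35.96 and 54.5 FPKM in KO against 5502, 3903 and 9015 FPKM in WT. Adgre1, which encodes the macrophage antigen F4/80, held 284, 467 and 732 FPKM in KO and 292, 669 and 1284 FPKM in WT. The 5 neutrophil markers summed to 36.7 to 63.8 FPKM in KO and 74.9 to 80.5 FPKM in WT. The 4 dendritic cell markers summed to 2.33 to 2.73 FPKM in KO and 1.82 to 2.12 FPKM in WT, and the 5 osteoclast markers to 6.25 to 25.7 FPKM in KO and 9.99 to 19.9 FPKM in WT. The 4 stromal or epithelial markers summed to 6.15 to 11.3 FPKM in KO and 5.68 to 9.60 FPKM in WT. The 4 lymphocyte markers never summed to more than 0.15 FPKM in KO or 0.16 FPKM in WT.

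The letters that MiT/TFE factors recognise were looked up in the promoters of these genes, since the factors are members themselves. RefSeq promoters (250 bases before to 50 after a start, GRCm38.p6) were matched for 35 of the 41 genes. The core CACGTG, which reads the same on both strands, lay in a promoter of 13 of the 35 (37.1%), against 1105 of 9111 measured genes with a promoter (12.1%). The longer TCACGTG, on either strand, lay in 11 (31.4%), against 7.31% of measured genes. The full palindrome TCACGTGA, which contains both shorter forms, lay in 6 of the 35 (17.1%), against 2.38% of measured genes. Counted over promoters of this length in place of genes, the shares were 28.9% against 10.2%, 24.4% against 6.16% and 13.3% against 1.97%. The windows of the 6 genes with the full palindrome are shown because they carry the longest match and span 4 roles, from proteases to proton pump. The window of Lamp1 is added because its promoter held 4 cores. Each window is from GRCm38.p6, 5′ to 3′ on the strand of the gene, and the capitals mark the core. Ctsd lies at chr7:142387896-142387949 on the minus strand, Ctsa at chr2:164833737-164833790 on the plus strand, Gla at chrX:134601170-134601223 on the minus strand, and Mcoln1 at chr8:3500450-3500503 on the plus strand. Atp6v0d1 lies at chr8:105566038-105566091 on the minus strand, Atp6v1a at chr16:44139361-44139414 on the minus strand, and Lamp1 at chr8:13159092-13159145 on the plus strand.
Ctsd: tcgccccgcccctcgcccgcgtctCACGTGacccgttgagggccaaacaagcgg
Ctsa: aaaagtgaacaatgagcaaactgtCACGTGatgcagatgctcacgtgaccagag
Gla: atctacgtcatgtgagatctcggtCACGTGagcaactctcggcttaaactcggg
Mcoln1: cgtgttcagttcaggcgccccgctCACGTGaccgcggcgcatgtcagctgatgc
Atp6v0d1: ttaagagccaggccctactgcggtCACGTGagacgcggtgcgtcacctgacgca
Atp6v1a: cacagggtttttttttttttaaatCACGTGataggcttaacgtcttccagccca
Lamp1: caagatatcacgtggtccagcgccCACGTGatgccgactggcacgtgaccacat
The first base of the core stood at position -98 from the start in Ctsd, -12 in Ctsa, -194 in Gla, -45 in Mcoln1, -3 in Atp6v0d1, -131 in Atp6v1a and -45 in Lamp1, where -1 is the base before the start. The other 6 genes with the core were Ctsf, Ctsl, Lgmn, Gaa, Glb1 and Naglu. A match is a string of letters and not a bound site.

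Lysosomal transcripts were abundant in every library. The 41 genes together took 6.13%, 4.84% and 5.25% of the FPKM total in KO at 0, 12 and 24 h, and 5.64%, 4.60% and 4.64% in WT. In bulk RNA, fewer cells of a type and less RNA per cell cannot be told apart. Of the 41, 40 had a mean of 10 FPKM or more, 24 of 100 or more and 8 of 1000 or more, and 10 ranked among the 100 genes with the highest mean FPKM of the table. The 6 most abundant, Ctsd, Psap, Ctss, Ctsb, Ctsz and Grn, made up 68.2% to 73.0% of the sum of the 41. The lowest was Ctsf, a cathepsin found here at 2.16 to 7.64 FPKM, or about 91 reads where it was lowest. For the other 40 genes the counting error of a log2 difference was at most 0.10 by the depth estimate, and for Ctsf 0.20; this is not the error between cultures. The WT 0 h library held the highest value of 14 genes, the KO 0 h library that of 11 and the KO 24 h library that of 9. The WT 12 h library held the lowest value of 12. These counts were not made over all genes. The factors of the 2 scalings used below were 1.17 to 1.20 at 0 h and 0.85 to 0.96 after LPS, so genes in general read higher at 0 h. The counts are therefore not read as a result about the members, and orders of libraries given below are as deposited.

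**Figure D1:**
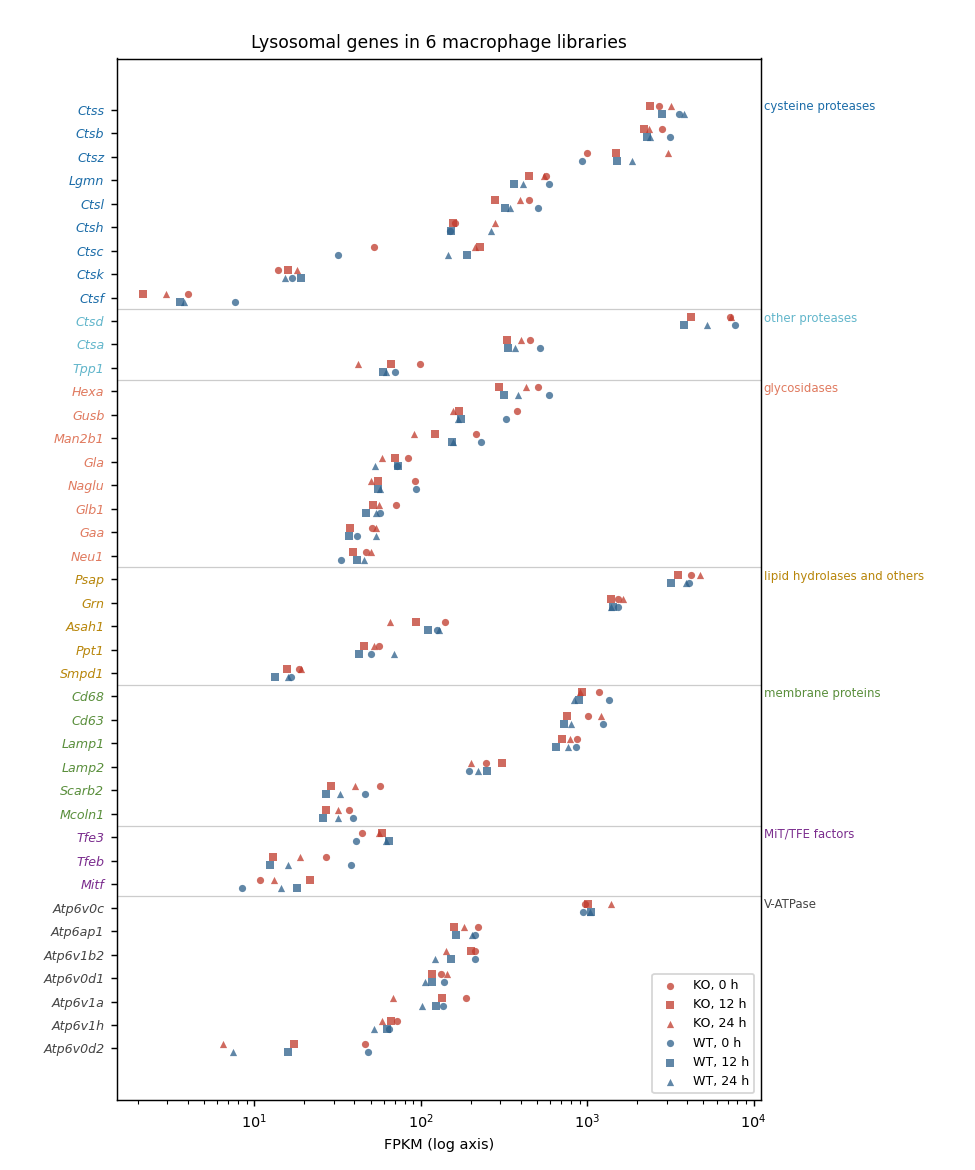
FPKM on a log axis of each of the 41 lysosomal genes in the 6 libraries, grouped by role and ordered by mean within a role; colour gives the genotype (KO, WT) and shape the time with LPS (0, 12, 24 h), with 1 library per point. Values run from 2.16 FPKM for Ctsf to 7683 FPKM for Ctsd, and Ctsc and Atp6v0d2 have the widest spread between libraries.

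After LPS a few lysosomal genes differed from 0 h by 2-fold or more, and the other members stayed within that size. Cathepsin C rose in each of the 4 comparisons of LPS with 0 h, and the V-ATPase subunit Atp6v0d2 fell in each. Tfeb, the MiT/TFE factor best known as a driver of lysosomal genes, fell at 12 h in both genotypes and at 24 h in WT. A gene is called here when its log2(FPKM + 1) differs by 1 or more, a rule of size and not a test. At 12 h in KO, 1 member was called higher and 3 lower, or 9.76% of the 41, beside 26.1% of the measured genes called (8.63% higher, 17.5% lower). In WT at 12 h, 2 were called higher and 3 lower (12.2%), beside 27% of measured genes (9.64% higher, 17.4% lower). At 24 h in KO, 2 were called higher and 6 lower (19.5%), beside 29.1% (7.55% higher, 21.6% lower). In WT at 24 h, 1 was called higher and 2 lower (7.32%), beside 21.5% (7.65% higher, 13.9% lower). The share of members called was thus below that of all measured genes in these 4 comparisons, a difference that was not tested. The 12 and 24 h comparisons of a genotype share their 0 h library.

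Most genes of the table read lower after LPS, and the members are best read against that shift. The 7679 genes with a mean of 5 FPKM or more had a median difference of -0.34 at 12 h and -0.32 at 24 h in KO, and of -0.27 and -0.24 in WT, and median-of-ratios and trimmed-mean scaling brought these medians to 0.04 and 0.0025 at 12 h and 0.13 with both at 24 h in KO, and to 0.02 and -0.0079 at 12 h and 0.04 with both at 24 h in WT. The members' medians were -0.35 and -0.18 in KO and -0.34 and -0.29 in WT. Relative to the median of the 7679 genes, the members at least 1 higher were Ctsc and Mitf at 12 h and Ctsc, Ctsh and Ctsz at 24 h, in KO and in WT alike. Those at least 1 lower at 12 h were Atp6v0d2 in KO and Tfeb and Atp6v0d2 in WT. At 24 h they were Atp6v0d2 and Atp6v1a in KO and Atp6v0d2 in WT. After scaling, the KO 24 h count of 2 higher and 6 lower became 3 higher and 1 lower (median of ratios) or 4 higher and 1 lower (trimmed mean), and the WT 24 h count of 1 higher and 2 lower became 3 higher and 1 lower with either. At 12 h the KO count of 1 higher and 3 lower became 2 and 0 or 2 and 1, and the WT count of 2 higher and 3 lower became 3 and 2 or 2 and 2. Shares of measured genes called after scaling were not taken, so the scaled counts are not read as a result about the members. In all 4 comparisons, 21 of the 41 genes (51.2%) were below 0 and 5 (12.2%; Ctsc, Ctsz, Tfe3, Mitf and Atp6v0c) above 0, beside 47.2% and 14.4% of measured genes. With either scaling these numbers of members were 6 below 0 and 12 above 0, so the tally turns with the scaling.

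**Figure D2:**
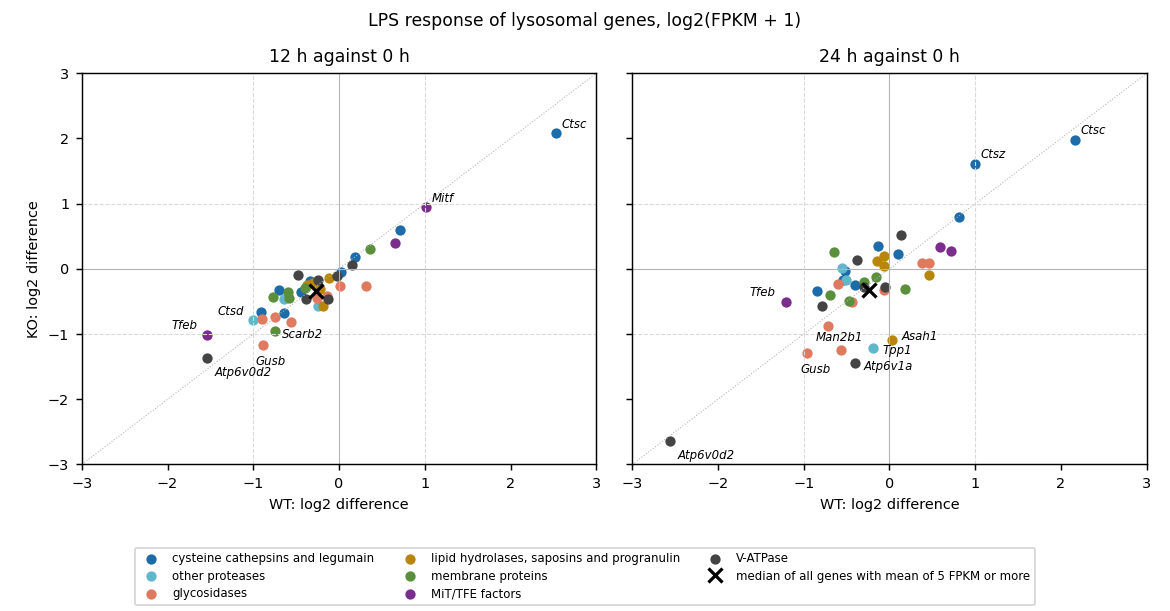
Difference of log2(FPKM + 1) between LPS and 0 h in KO (vertical axis) against WT (horizontal axis) for the 41 lysosomal genes, at 12 h (left) and 24 h (right); dashed lines mark the 2-fold rule, the dotted line equal responses and the cross the median over all genes averaging 5 FPKM or more. Ctsc lies at the upper right in both panels and Atp6v0d2 at the lower left; Tpp1, Asah1, Man2b1 and Atp6v1a lie below the dotted line at 24 h.

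Among the cysteine proteases, 2 genes were called higher after LPS as deposited and none of the 9 was called lower. The share called was 22.2% at 24 h in KO and 11.1% in the other comparisons with 0 h. Of measured genes, 7.55% to 9.64% were called higher and 13.9% to 21.6% lower. With 9 genes these shares are not read as a result. Ctsh passed the rule at 24 h with either scaling. Cathepsin C (Ctsc) is a dipeptidyl peptidase that activates the serine proteases of immune granules. Its level was 52.8, 227 and 212 FPKM at 0, 12 and 24 h in KO and 31.9, 189.5 and 147 FPKM in WT. Both LPS libraries of a genotype stood far above its 0 h library, and the 0 h level was higher in KO. The log2 difference from 0 h was 2.08 at 12 h and 1.98 at 24 h in KO, and 2.53 and 2.17 in WT, and the call held under every alternative tried. Cathepsin Z (Ctsz) is a carboxypeptidase. It held 995.1, 1498 and 3043 FPKM in KO and 928, 1519 and 1851 FPKM in WT, so that the 24 h KO library had the highest value. Ctsz was called higher at 24 h in KO (1.61) and not in WT, where the difference of 0.99 fell just short of the rule and became 1.13 once the trend over transcript length described below was removed. The step between 12 and 24 h was 1.02 in KO and 0.28 in WT, and the KO step dropped under the rule without the length trend (0.66). This was the 1 member called higher at 24 h than at 12 h in KO, beside 4.78% of measured genes (12.5% in either direction); in WT there was none, beside 1.82%.

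Cathepsin H (Ctsh), an aminopeptidase, had its highest value at 24 h in both genotypes. It held 161, 156 and 279 FPKM in KO and 149.5, 152 and 263 FPKM in WT, and the 24 h libraries alone stood apart. The log2 difference at 24 h was 0.79 in KO and 0.81 in WT, under the rule as deposited and past it with either scaling (1.27 in KO, 1.12 in WT). Ctss and Lgmn cut the invariant chain and antigens on the way to MHC class II. Ctss held 2716, 2382 and 3184 FPKM in KO and 3586, 2834 and 3837 FPKM in WT, with the lowest value of each genotype at 12 h and the KO value below the WT value at each time. Lgmn held 563, 449 and 551 FPKM in KO and 593, 363 and 413 FPKM in WT, and was higher in KO at 12 and 24 h by 0.30 and 0.41 on the log2 scale. As deposited, the 2 broad endopeptidases Ctsb and Ctsl were at their highest before LPS. With either scaling their 24 h differences were 0.23 and 0.31 in KO, above 0, and -0.09 and -0.24 in WT. Ctsb held 2803, 2183 and 2351 FPKM in KO and 3140.0, 2299.5 and 2380.1 FPKM in WT, and Ctsl 448, 279 and 397 FPKM and 505, 323 and 346 FPKM. As deposited, none of these differences reached 2-fold.

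Cathepsin K (Ctsk), the collagen-degrading protease of osteoclasts, lies 17398 bases from Ctss on chromosome 3, yet the levels of the 2 neighbours were far apart. It held 13.99, 15.9 and 18.2 FPKM in KO and 16.8, 19.2 and 15.3 FPKM in WT. Per length, Ctss was 149.7 to 194 times as high as Ctsk in KO and 147.7 to 251 times in WT. Ctsf held 4.01, 2.16 and 2.96 FPKM in KO and 7.64, 3.61 and 3.81 FPKM in WT, the WT 0 h library being the highest. Its difference of -0.79 between KO and WT at 0 h was the most negative of any member in that comparison.

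Of the other proteases, cathepsin D (Ctsd), the main aspartic protease of the lysosome, was the most abundant member of all. It held 7249, 4195 and 7305 FPKM in KO and 7683, 3839.7 and 5244 FPKM in WT. As deposited, the 12 h library was the lowest in both genotypes, and at 24 h the KO library was back at its 0 h level while the WT library was not. The WT difference of -1.0005 at 12 h only just reached 2-fold, and was -0.91 without the length trend. In KO it was -0.79 at 12 h and 0.01 at 24 h. With the scalings the 24 h difference was 0.49 or 0.50 in KO and -0.24 in WT. Ctsa, a carboxypeptidase that also shields beta-galactosidase and neuraminidase, held 454, 331 and 401 FPKM in KO and 522, 334 and 368 FPKM in WT, again lowest at 12 h.

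Tpp1, a tripeptidyl peptidase whose loss causes a childhood neuronal storage disease in humans, took another course in the 2 genotypes. It held 98.6, 65.96 and 41.8 FPKM in KO and 70.3, 59.1 and 61.6 FPKM in WT. The KO libraries stood in falling order with time, with the highest and the lowest of the 6 values, while the WT libraries lay close together. Tpp1 fell at 24 h in KO (-1.22, and -0.99 without the length trend, -0.75 or -0.74 with the scalings), against -0.19 in WT.

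Glycosidases strip sugars from glycoproteins, glycolipids and glycogen. Of the 8, 1 was called at 12 h and 2 at 24 h in KO, all lower. These are 12.5% and 25%, beside 26.1% and 29.1% of measured genes. In WT 0 were called, beside 27% and 21.5%. With 8 genes these shares are not read as a result, and whether the genotypes differ in this was not tested. Gusb, the beta-glucuronidase often used as a lysosomal reporter enzyme, held 382, 169 and 156 FPKM in KO and 326, 175 and 167 FPKM in WT. The 2 untreated libraries were the highest, and the 4 LPS libraries lay together between 156 and 175 FPKM. The differences were -1.17 and -1.29 in KO at 12 and 24 h and -0.89 and -0.96 in WT, on either side of the rule. Man2b1, the lysosomal alpha-mannosidase, held 216, 122 and 90.8 FPKM in KO and 229.7, 155 and 155 FPKM in WT. The 24 h KO library was the lowest, and the WT libraries at 12 and 24 h were alike. Man2b1 fell at 24 h in KO (-1.24; -0.96 without the length trend), against -0.56 in WT. Both scalings took the KO calls of Gusb and Man2b1 below the rule.

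The other 6 glycosidases stayed within 2-fold throughout. Hexa, a subunit of beta-hexosaminidase, held 505, 295 and 431 FPKM in KO and 587, 315 and 386 FPKM in WT, highest at 0 h in both. Naglu, which trims heparan sulfate, held 92.7, 55.3 and 50.1 FPKM in KO and 93.3, 55.3 and 56.6 FPKM in WT, with near-equal values of the 2 genotypes at each time. Glb1, the beta-galactosidase, held 70.9, 51.9 and 56.5 FPKM in KO and 56.8, 47.1 and 54.1 FPKM in WT. As deposited, these 3 had their highest value of each genotype before LPS. With the scalings the 24 h difference of Hexa was 0.25 or 0.26 in KO. That of Glb1 was 0.15 in KO and 0.23 in WT. Gla, which removes galactose from globotriaosylceramide, held 84.2, 69.8 and 58.9 FPKM in KO and 72.5, 72.9 and 53.2 FPKM in WT. Gaa, the enzyme that degrades glycogen in lysosomes, held 50.8, 37.9 and 54.1 FPKM in KO and 41.3, 37.2 and 53.9 FPKM in WT, with the highest value at 24 h in both. Neu1, the sialidase, held 47.2, 39.2 and 50.5 FPKM in KO and 33.2, 41.3 and 45.99 FPKM in WT, so that it stood higher in KO at 0 h (0.50 on the log2 scale) and close to WT afterwards.

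In the group of lipid breakdown, the acid ceramidase Asah1 stood furthest apart between KO and WT at 24 h. It held 140.0, 94.3 and 65.5 FPKM in KO and 126, 110.5 and 129 FPKM in WT. At 0 h the KO value was the higher of the pair, and at 24 h it was the lowest of the 6 libraries while WT was at its highest. Asah1 fell at 24 h in KO, with a log2 difference of -1.08 (-1.03 without the length trend), against 0.03 in WT. With the scalings the KO difference was -0.61 or -0.60, below the rule. Asah1 overlaps the gene Frg1 by 8464 bases in the RefSeq annotation, and the sources used here do not give whether counting used strand.

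The remaining members of that group stayed within 2-fold. Psap, the precursor of the saposins that hand sphingolipids to their hydrolases, held 4198, 3517 and 4793 FPKM in KO and 4106, 3169 and 3922 FPKM in WT. Grn (progranulin), a secreted and lysosomal glycoprotein, held 1525, 1387 and 1653 FPKM in KO and 1537, 1421 and 1386 FPKM in WT, the narrowest range of all 41 genes (1.19-fold between the lowest and the highest library). The sphingomyelinase Smpd1 held 18.5, 15.8 and 19.2 FPKM in KO and 16.7, 13.3 and 15.95 FPKM in WT. For each of these 3 the ranges of the 2 genotypes overlapped. Ppt1, a thioesterase that removes palmitate from proteins, held 56.3, 45.5 and 52.5 FPKM in KO and 50.04, 42.7 and 69.2 FPKM in WT, with the highest value in WT at 24 h.

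As deposited, none of the 6 membrane protein genes was called in any comparison, beside 2.04% to 29.1% of measured genes. With 6 genes this is not read as a result. Lamp1, the most familiar lysosomal marker, held 869, 708 and 794 FPKM in KO and 862, 652 and 771 FPKM in WT, and Lamp2, which also serves chaperone-mediated autophagy, held 248, 306 and 200.2 FPKM in KO and 194, 249 and 221 FPKM in WT. As deposited, Lamp2 differed from Lamp1 in having its highest value of each genotype at 12 h, where Lamp1 had its lowest. Cd63, a tetraspanin of late endosomes, held 1018, 753 and 1217 FPKM in KO and 1248, 730.0 and 798 FPKM in WT. The 24 h KO library stood with the 0 h libraries, and the 24 h WT library with the 12 h ones. Cd68, a sialomucin used as a macrophage marker, held 1185, 929 and 901 FPKM in KO and 1353, 894 and 836 FPKM in WT. It was lower in all 4 LPS libraries as deposited, but not in KO with the scalings (0.05 or 0.02 at 12 h, 0.09 at 24 h). Scarb2, the receptor that brings glucocerebrosidase to the lysosome, held 57.1, 29.03 and 40.4 FPKM in KO and 46.1, 27.01 and 32.9 FPKM in WT. Scarb2 came near the rule at 12 h (-0.95 in KO, -0.75 in WT) and passed it without the length trend (-1.01 and -1.05). Mcoln1, the calcium channel through which lysosomes signal, held 37.04, 26.96 and 32.1 FPKM in KO and 39.1, 25.8 and 31.8 FPKM in WT.

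The 3 MiT/TFE factors went different ways after LPS. Tfeb held 27.1, 12.9 and 18.8 FPKM in KO and 38.1, 12.5 and 15.9 FPKM in WT. In both genotypes 0 h was the highest and 12 h the lowest, and the 0 h level was higher in WT. Tfeb fell at 12 h, with log2 differences of -1.01 in KO and -1.54 in WT; at 24 h the difference was -0.50 in KO, short of the rule, and -1.21 in WT. With the scalings the call remained in WT at 12 h and was lost in KO at 12 h (-0.63 and -0.66) and in WT at 24 h (-0.91 and -0.92). Mitf held 10.8, 21.7 and 13.2 FPKM in KO and 8.44, 18.1 and 14.6 FPKM in WT, highest at 12 h in both. Mitf rose at 12 h in WT (1.02; 0.93 without the length trend), and the KO difference of 0.95 stood just under the rule. Tfe3 held 44.4, 58.9 and 56.4 FPKM in KO and 40.7, 64.6 and 61.9 FPKM in WT, higher in all 4 LPS libraries than at 0 h, by 0.34 to 0.65 on the log2 scale. At 0 h the order per length was Tfe3, Tfeb, Mitf in both genotypes; at 12 h it was Tfe3, Mitf, Tfeb in both; and at 24 h Tfeb was again above Mitf, by 18.8 against 13.2 FPKM in KO and 15.9 against 14.6 FPKM in WT.

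Within the V-ATPase, 1 subunit of an interchangeable pair was lower after LPS in both genotypes. Atp6v0d2 and Atp6v0d1 encode alternative forms of the d subunit, which joins the membrane ring to the central stalk, and Atp6v0d2 is best known from osteoclasts. Atp6v0d2 held 46.2, 17.3 and 6.54 FPKM in KO and 48.5, 16.02 and 7.42 FPKM in WT, and the 2 genotypes ran side by side. It fell with log2 differences from 0 h of -1.37 at 12 h and -2.65 at 24 h in KO, and -1.54 and -2.56 in WT. The 24 h calls held under every alternative tried; the 12 h call held in WT and was -0.98 in KO with median-of-ratios scaling. It was also the 1 member called lower at 24 h than at 12 h, with -1.28 in KO, beside 7.67% of measured genes, and -1.02 in WT, beside 3.79% (5.61% in either direction). With a pseudocount of 5 those 2 steps were -0.95 and -0.76, under the rule. Atp6v0d1, not called as deposited, held 132, 117 and 145 FPKM in KO and 138, 116 and 106 FPKM in WT. The ratio of Atp6v0d1 to Atp6v0d2, per length, was therefore 2.85, 6.78 and 22.1 at 0, 12 and 24 h in KO and 2.84, 7.27 and 14.3 in WT.

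Atp6v1a encodes the catalytic subunit that splits ATP. It held 186, 134 and 67.8 FPKM in KO and 136, 124 and 103 FPKM in WT. The KO libraries held both the highest value, at 0 h, and the lowest, at 24 h. Atp6v1a fell at 24 h in KO, with a log2 difference of -1.44 (-1.11 without the length trend; -0.96 with either scaling), against -0.40 in WT. Its partner in the catalytic ring, Atp6v1b2, held 212, 199 and 142 FPKM in KO and 212, 152 and 122 FPKM in WT, and the regulatory subunit Atp6v1h 71.7, 66.3 and 58.6 FPKM and 64.4, 63.1 and 52.1 FPKM. The accessory subunit Atp6ap1 held 219.8, 159 and 181 FPKM in KO and 212, 163 and 204 FPKM in WT. These 3 stayed within 2-fold. Atp6v0c, the subunit that repeats to form the membrane ring, was by far the most abundant of the 7, with 969.6, 1009.7 and 1388 FPKM in KO and 947, 1053 and 1042 FPKM in WT. A near-identical copy, Atp6v0c-ps2, was listed at 20.3, 23.3 and 97.2 FPKM in KO and 53.9, 37.8 and 31.9 FPKM in WT, so the split of reads between the 2 is uncertain.

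Of the 12 measured pump subunits outside the 7, Atp6v0a1, a form of the a subunit of the membrane part, was called lower in all 4 comparisons with 0 h. It held 126, 30.98 and 34.9 FPKM in KO and 94.1, 25.8 and 27.4 FPKM in WT. Tcirg1, which encodes the a3 form of the same subunit and was not called as deposited, held 312, 499 and 381 FPKM in KO and 243, 427 and 256 FPKM in WT, so the ratio of Tcirg1 to Atp6v0a1 per length was 2.49, 16.1 and 10.9 in KO and 2.58, 16.5 and 9.32 in WT. The log2 differences of Atp6v0a1 at 12 and 24 h were -1.99 and -1.82 in KO and -1.83 and -1.74 in WT. The only other call in this list was Atp6v1c1, lower at 24 h in KO (-1.16). The share of the 12 called was 8.33% at 12 h and 16.7% at 24 h in KO and 8.33% at both times in WT, below the 26.1%, 29.1%, 27% and 21.5% of measured genes. The list's medians for LPS against 0 h were -0.14 and 0.17 in KO and -0.45 and -0.31 in WT. Without the length trend described below they were 0.06 and -0.20 in KO and -0.01 and -0.17 in WT.

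**Figure D3:**
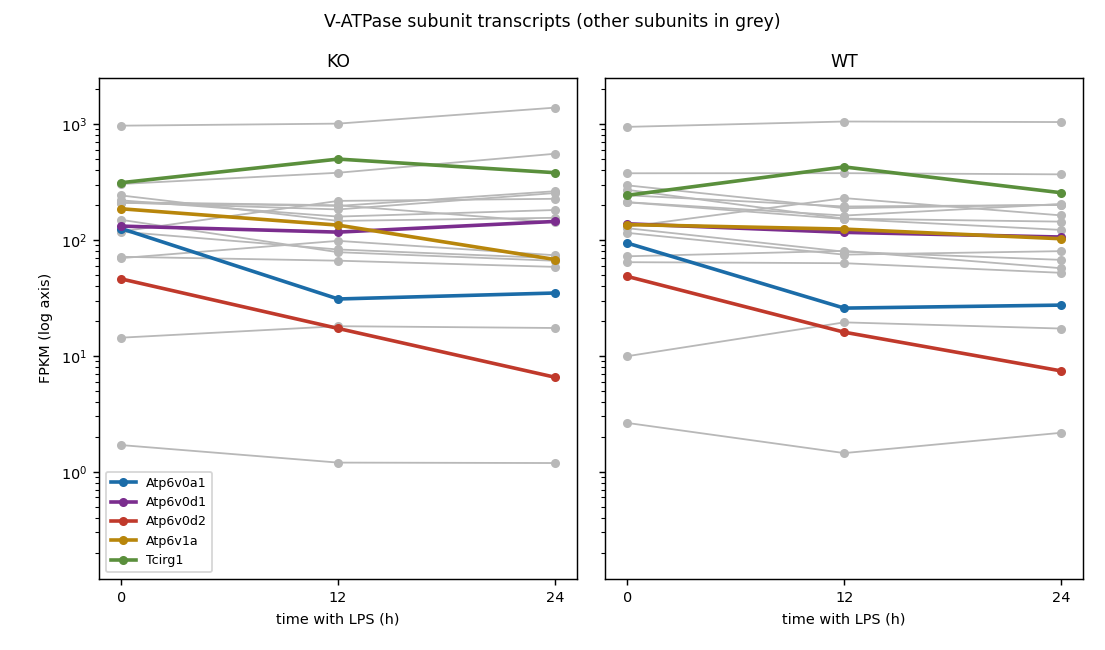
FPKM on a log axis of the 19 measured V-ATPase genes over time with LPS, in KO (left) and WT (right); 5 genes are coloured and the other subunits grey, with 1 library per point. Atp6v0d2 ends at 6.54 FPKM in KO and 7.42 FPKM in WT, Atp6v0a1 drops between 0 and 12 h in both, and Atp6v1a ends lower in KO than in WT.

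KO and WT differed by less than 2-fold for each of the 41 genes at each time. At 0 h no member was called in either direction, beside 4.23% of measured genes (2.96% higher, 1.26% lower in KO). At 12 h none was called, beside 2.04% (1.32% higher, 0.727% lower), and at 24 h none, beside 4.15% (2.22% higher, 1.93% lower). The members' medians were 0.03, 0.04 and 0.11 at 0, 12 and 24 h, and those of the genes with a mean of 5 FPKM or more 0.01, -0.07 and -0.09. Ctsc and Ctsf were the extremes at 0 h (0.71 and -0.79), and Atp6v1b2 and Ctsf at 12 h (0.39 and -0.54). At 24 h the genes lowest in KO relative to WT were Asah1 (-0.97), Man2b1 (-0.77), Atp6v1a (-0.59) and Tpp1 (-0.55). Those highest in KO were Ctsz (0.72), Cd63 (0.61) and Ctsc (0.52). The KO value was above WT at all 3 times for 10 of the 41 (Ctsc, Ctsh, Gaa, Glb1, Psap, Smpd1, Lamp1, Scarb2, Atp6v1b2 and Atp6v1h), mostly by small amounts, and below it for 4 (Ctsb, Ctsf, Ctss and Man2b1). These counts were 12 and 3 with median-of-ratios scaling, 10 and 3 with trimmed means and 12 and 4 without the length trend. They were not made over all genes and are not read as a result about the members.

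**Figure D4:**
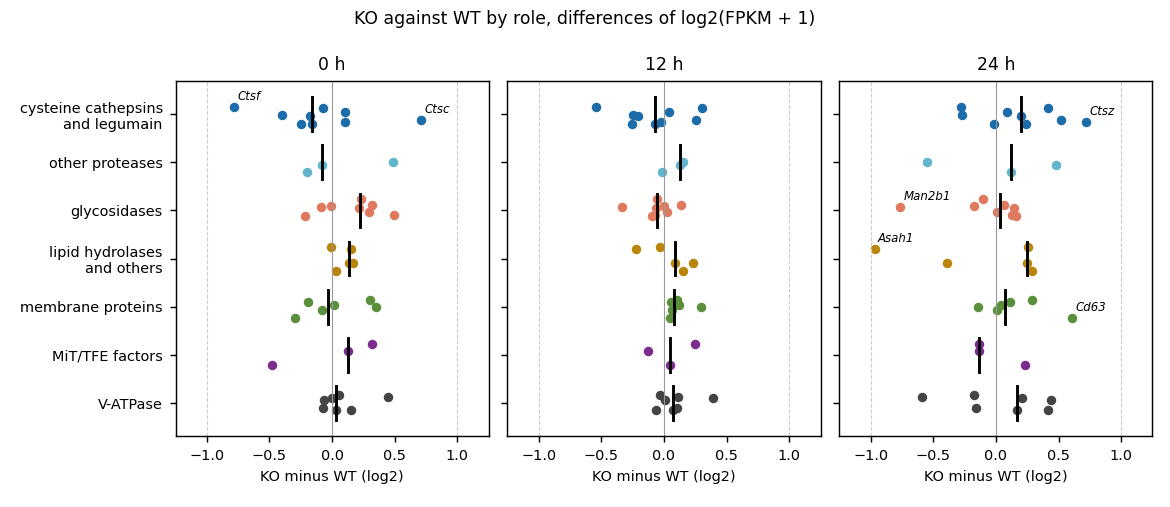
Difference of log2(FPKM + 1) between KO and WT for the 41 lysosomal genes by role, at 0, 12 and 24 h; each point is 1 gene, the black bar the median of its role and the dashed lines the 2-fold rule. All points lie inside the rule, with Ctsf (-0.79) and Ctsc (0.71) outermost at 0 h and Asah1 (-0.97) and Ctsz (0.72) at 24 h.

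The LPS response itself was compared between genotypes as the difference of differences, KO minus WT. At 12 h no member was called, beside 4.79% of measured genes (1.65% higher, 3.14% lower). At 24 h, 3 members were called lower (7.32% of the 41) and none higher, beside 12.7% of measured genes (8.63% lower, 4.04% higher). They were Asah1 (-1.12), Atp6v1a (-1.04) and Tpp1 (-1.03), in each of which the KO value was above WT at 0 h and below it at 24 h. Cd63 (0.90) and Tfeb (0.71) were the most positive. With either scaling none of the 3 passed the rule (Asah1 -0.95 or -0.94, Atp6v1a -0.87 or -0.86, Tpp1 -0.86 in both), and the 1 call was Cd63, higher. No test of these differences could be made with 1 library per group.

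Transcript length moved with the genotype differences. Over the 41 members, Spearman's rho between the KO minus WT difference and transcript length was 0.50 at 0 h, 0.17 at 12 h and -0.40 at 24 h, and -0.64 for the difference of the 24 h responses. Over the 5584 genes with a mean of 10 FPKM or more in that last comparison it was -0.68. Genes of 1 pair of libraries are not independent points, so each rho is a description. The 21 shorter members (up to 2412 nt) had a median difference of 24 h responses of 0.37, and the 20 longer members of -0.26. With the trend over length removed from each library these medians were 0.12 and -0.11. Without the trend the 24 h response difference was -1.04 for Asah1, -0.73 for Tpp1 and -0.60 for Atp6v1a, so that Asah1 alone of the 3 stayed past the rule. Cd63, the shortest of the 41, was 0.26 without it. What produced the trend was not tested.

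**Figure D5:**
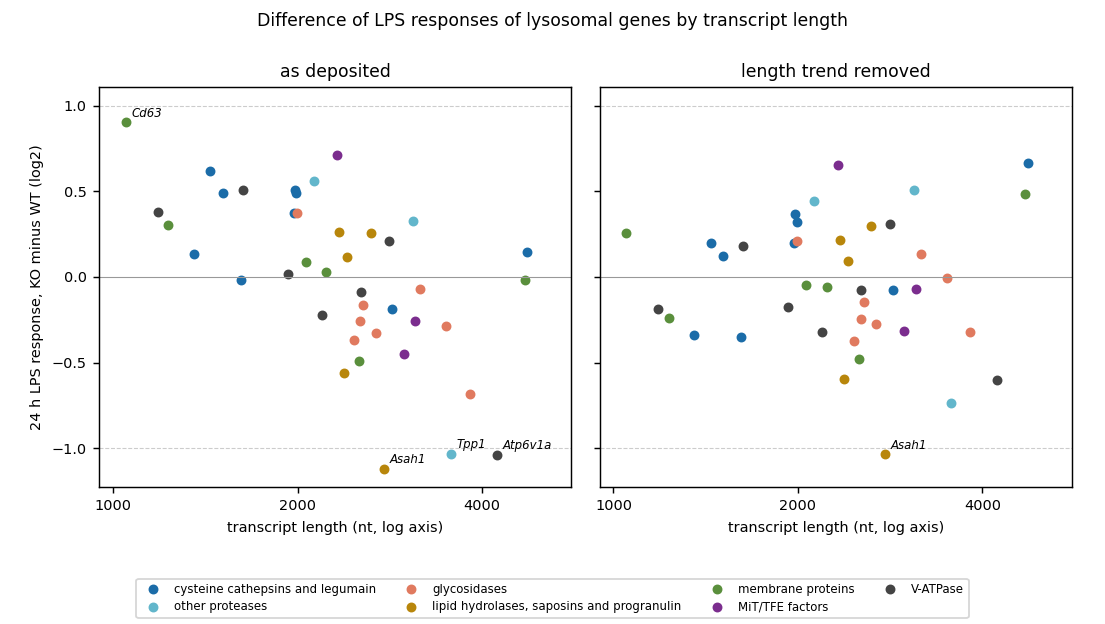
Difference of the 24 h LPS responses (KO minus WT, log2) of the 41 lysosomal genes against transcript length in nt on a log axis, as deposited (left) and with the length trend of each library removed (right); dashed lines mark the 2-fold rule. As deposited, short transcripts such as Cd63 lie above 0 and Tpp1, Atp6v1a and Asah1 at or below the lower line; with the trend removed, Asah1 (-1.04) remains below it.

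The CACGTG core was found both in promoters of called genes and in those of genes not called. Of the called members with a RefSeq promoter, Ctsd and Atp6v1a hold the core, and Ctsc, Ctsz, Tpp1, Gusb, Man2b1, Tfeb and Mitf do not. The 13 members with the core had a median LPS difference of -0.44 at 12 h and -0.18 at 24 h in KO, and of -0.58 and -0.44 in WT. The 22 members with a promoter and no core had -0.26 and 0.07 in KO, and -0.28 and -0.07 in WT. Among measured genes that are not members, the 1092 with the core had medians of -0.42 at 12 h and -0.49 at 24 h in KO, and of -0.31 and -0.33 in WT. The 7984 without it had -0.37 and -0.38 in KO, and -0.29 and -0.24 in WT, so that the medians were lower with the core in all 4 comparisons, for members and for other genes; none of these differences was tested.

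Lysosomal hydrolases outside the members were called after LPS about as often as measured genes in general. Of 27 further enzymes and activators, all measured, 2 were called higher and 5 lower at 12 h in KO, and 2 higher and 7 lower in WT; at 24 h the counts were 2 and 6 in both. These are 25.9% and 29.6% of the 27 at 12 and 24 h in KO, beside 26.1% and 29.1% of measured genes, and 33.3% and 29.6% in WT, beside 27% and 21.5%. The 2 that rose in all 4 comparisons were the acid phosphatases Acp5 and Acp2. Acp5, also known as a marker enzyme of osteoclasts, held 14.4, 68.2 and 120.4 FPKM in KO and 13.2, 107 and 129 FPKM in WT, and its log2 difference at 24 h was 2.98 in KO and 3.20 in WT. Lipa, the acid lipase that releases cholesterol and fatty acids from taken-up lipoproteins, held 593, 171 and 142 FPKM in KO and 545, 158 and 186 FPKM in WT. Lipa fell in all 4 comparisons, with log2 differences at 12 and 24 h of -1.78 and -2.05 in KO and -1.78 and -1.54 in WT. Sgsh, a sulfatase of heparan sulfate, did so with -2.40 and -1.91 in KO and -2.61 and -2.07 in WT. No gene of this list was called between KO and WT at any single time. Of measured genes, 4.23%, 2.04% and 4.15% were called at 0, 12 and 24 h. With 27 genes this is not read as a result.

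Membrane and sorting genes outside the members included 3 called between KO and WT. Of 20 measured, Cd164 (1.40) and Slc29a3, a nucleoside transporter (1.43), were higher in KO at 0 h, and the sorting receptor Sort1 was lower in KO at 24 h (-1.06; -0.82 without the length trend). The 2 calls at 0 h are 10% of the list, beside 4.23% of measured genes, and the 1 call at 24 h is 5%, beside 4.15%. Cd164 held 56.9, 132 and 53.2 FPKM in KO and 21, 69.7 and 30.97 FPKM in WT, highest at 12 h in both. Slc11a1, the metal ion transporter of the phagosome, held 169, 244 and 398 FPKM in KO and 109.6, 289.5 and 446 FPKM in WT, and was called higher in WT at both times and in KO at 24 h. At 24 h against 0 h, 2 of the list were higher and 8 lower in KO, and 1 higher and 0 lower in WT, or 50% and 5% of the list, beside 29.1% (7.55% higher, 21.6% lower) and 21.5% (7.65% higher, 13.9% lower) of measured genes. Without the length trend 2 were higher and 6 lower in KO, and 1 higher and 1 lower in WT. Of the 11549 measured genes, 844 were then higher and 2076 lower in KO, and 879 higher and 1504 lower in WT. The difference between the genotypes was not tested. Npc1 and Npc2 hand cholesterol out of the lysosome. As deposited, they went opposite ways at 24 h in both genotypes, and only the KO differences passed the rule. Npc1 held 106, 61.6 and 31.6 FPKM in KO and 65.4, 59.3 and 46.5 FPKM in WT, and fell at 24 h in KO (-1.72; -1.31 without the length trend). Npc2 held 439, 589 and 1015 FPKM in KO and 461, 619 and 733 FPKM in WT, and rose at 24 h in KO (1.21). The mannose 6-phosphate receptor Igf2r, which carries new hydrolases to the lysosome, fell at 24 h in KO (-1.69; -1.06 without the length trend), against -0.11 in WT; its transcript, of 8887 nt, is the longest of the list.

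Of 17 genes of nutrient sensing at the lysosome, 0 were called between KO and WT at any time, beside 4.23%, 2.04% and 4.15% of measured genes at 0, 12 and 24 h. At 24 h against 0 h, 6 were lower and 0 higher in KO, and 2 lower and 0 higher in WT. These are 35.3% of the 17 in KO, beside 29.1% of measured genes (21.6% lower), and 11.8% in WT, beside 21.5% (13.9% lower), shares too near the background to be read as a result about the list. The 6 were Mtor, the kinase itself (-1.13), Rptor (-1.54), Rragd (-1.80), Flcn (-1.19), Fnip1 (-1.54) and Fnip2 (-1.74), and without the length trend Mtor was -0.60 and the other 5 stayed past the rule. Flcn and its partners Fnip1 and Fnip2 act on the RAG GTPases that bring mTORC1 and TFEB to the lysosome. In WT the 2 were Rragd (-1.19) and Fnip2 (-1.05). Tfec, the remaining MiT/TFE gene, held 14.98, 27.1 and 21.8 FPKM in KO and 8.98, 19.3 and 13.1 FPKM in WT, and was called higher at 12 h in WT (1.02; 0.81 in KO).

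Few genes of the list of cathepsin inhibitors were measured. Of the 6, Cst7 (cystatin F), which restrains cathepsin C, rose together with it and held 3.23, 35.1 and 32.3 FPKM in KO and 3.23, 42.2 and 31.7 FPKM in WT. Cst3 (cystatin C), the secreted inhibitor, held 1032, 810.1 and 1576 FPKM in KO and 1623, 887 and 1117 FPKM in WT, with -0.65 at 0 h and 0.50 at 24 h for KO minus WT on the log2 scale. Serpinb9, whose action on cathepsins was not examined here, was higher in KO at 0 h (1.15). It was the 1 call of the 6 (16.7%), beside 4.23% of measured genes. Stfa3 was called higher in KO at 24 h (1.12), at levels of 0, 0.25 and 1.44 FPKM in KO and 0, 0.25 and 0.12 FPKM in WT. That 1 call is again 16.7% of the 6, beside 4.15% of measured genes. Without the length trend it was lost, and 0 of the list were called between KO and WT at 24 h. At 24 h against 0 h, 2 of the 6 were called higher and 0 lower in KO, and 2 higher and 1 lower in WT, the last being Serpinb6a (-1.63). These are 33.3% and 50% of 6 genes, beside 29.1% and 21.5% of measured genes. For the 24 h LPS response, KO minus WT, 2 of the 6 (33.3%) were called higher, with Cst3 the highest (1.15). Of measured genes, 12.7% were called (4.04% higher). Without the length trend 0 of the 6 were called, and the list's median was 0.02 in place of 0.74. Over the 5 further lists, the median 24 h differences from 0 h were -0.39 for the enzymes, -0.49 for the membrane and sorting genes, 0.17 for the pump subunits, -0.75 for nutrient sensing and 0.77 for the inhibitors in KO, beside -0.39 for all measured genes. In WT they were -0.28, -0.16, -0.31, -0.63 and 0.03 in the same order, beside -0.25. Without the length trend they were -0.26, -0.64, -0.20, -0.76 and 0.61 in KO, beside -0.35 for all measured genes. In WT without it they were -0.31, -0.23, -0.17, -0.45 and 0.19, beside -0.24.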

How the data were processed

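RNA was measured in 6 libraries of macrophages from mouse bone marrow, with 1 library per genotype (Setd2 KO, WT) and time (0, 12, 24 h with LPS). The labels' protocols name TRIzol for the extraction of total RNA and BGISEQ-500 as the sequencer. The deposited values are FPKM per gene with 2 decimals, per the file headers, and were made with Bowtie2, RSEM and the build GRCm38, per the submitters' processing notes; settings and versions are not given in the sources used here. Counts were not used here.

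The table had 17905 rows, of which 17904 name a gene. In the KO 0 h column, 2 cells were not numbers and were read as missing; neither belongs to a member. A gene was measured at 1 FPKM or more in any library (11549 genes). Differences were taken on log2(FPKM + 1), with a pseudocount of 1, and a gene was called at 2-fold; such differences understate the change of low genes. There were 11 comparisons: KO with WT at 3 times, each LPS time with 0 h and 24 h with 12 h per genotype, and KO minus WT in the LPS response at 12 and 24 h. With 1 library per group none has a test. Depth was estimated from the spacing of low FPKM values, where 1 read more or less is visible, with an assumed read length of 50. The match to whole reads scored 0.291 to 0.328, and 0.0574 to 0.103 with shuffled lengths; it gives counting error only. Transcript lengths came from GENCODE M21 (99.6% of measured genes), coordinates and promoters from RefSeq. To remove the length trend, each gene's log2 FPKM was first taken relative to its mean log2 FPKM over the 6 libraries. Per library, a lowess fit (span 0.3) of this value on log transcript length was made in 5581 genes averaging 10 FPKM or more. The fit was centred at its median and subtracted. The scripts were tested on simulated data.

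The members, the 5 lists of other lysosomal genes (enzymes and activators, membrane proteins and sorting, V-ATPase subunits, nutrient sensing, cathepsin inhibitors) and the marker lists were chosen with earlier results of these data known. All 41 members could be named; of the other lists, called genes and up to 4 with the largest difference; markers, Setd2 and LPS genes as checks. Tfec, Cst3 and Adgre1 are named under the same rule. The values of 1 gene of these lists are not reported here. Alternatives were pseudocounts of 0.1 and 5, no minimum or a minimum of 5 FPKM, scaling of FPKM by trimmed means (as in TMM) or by median of ratios, removal of the length trend and a 1.5-fold rule. Python 3.11.15, pandas 2.3.3, scipy 1.17.1, statsmodels 0.14.6 and matplotlib 3.10.9 were used.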

Additional observations from a re-analysis of the deposited data

Results flagged for a closer look

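For 7 members the LPS response had opposite signs in KO and WT, by at least 0.1 on the log2 scale in each. With 1 library per group the difference was not tested, and all 7 stayed within 2-fold. The count was not made over all genes and is not read as a result about the members. The signs depend on where 0 lies: with either scaling 5 of the 7 (Neu1, Ctsk, Grn, Ppt1 and Lamp2) were above 0 in both genotypes, and 2 (Cd63 and Atp6v0d1) kept opposite signs. As deposited, Neu1, the sialidase, had opposite signs at 12 h, with -0.26 in KO and 0.31 in WT. The other 6 had them at 24 h: the protease gene Ctsk with 0.35 in KO and -0.13 in WT, progranulin Grn with 0.12 in KO and -0.15 in WT, and the thioesterase Ppt1 with -0.10 in KO and 0.46 in WT. Lamp2 had -0.31 in KO and 0.18 in WT, Cd63 0.26 in KO and -0.64 in WT, and the pump subunit Atp6v0d1 0.13 in KO and -0.38 in WT. With the trend over transcript length removed, Cd63 (-0.15 in KO, -0.41 in WT) and Atp6v0d1 (-0.08 in KO, -0.27 in WT) no longer had opposite signs, and Ctsk was 0.11 in KO and -0.01 in WT.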

How the results depend on the processing

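No paired analysis was possible because each group has 1 library and all carry the same replicate number. Leaving out a replicate was not possible for the same reason. No direction of a called member reversed under any alternative. Called or not, 15 members at 12 h and 14 at 24 h changed the sign of their LPS difference in KO with a scaling. In WT these numbers were 9 and 10. The 26 calls of single members were each recomputed under every alternative; 169 of these values stayed past 2-fold and 39 did not (13 with each scaling, 7 without the length trend, 6 with a pseudocount of 5). The members' median difference moved with median-of-ratios and trimmed-mean scaling: for KO against WT at 24 h to 0.26 and 0.25, for LPS at 12 h in KO to 0.052 and 0.016 and in WT to -0.024 and -0.055, for LPS at 24 h in KO to 0.30 and 0.31 and in WT to 0.0085 and 0.0077, for the difference of the 24 h responses to 0.20 and 0.21, and for 24 h against 12 h in KO with trimmed means to 0.32. The number of members called changed to 2 (KO, LPS 12 h) and 4 (KO, LPS 24 h) with median of ratios, to 5 (KO, LPS 24 h) and 0 (WT, 24 h against 12 h) with trimmed means, and to 1 for the difference of the 24 h responses with either scaling or without the length trend. For 24 h against 12 h it was 1 in KO with a pseudocount of 5 or without the length trend, and 0 in WT with a pseudocount of 5, which also left 3 for LPS at 12 h in WT. With a 1.5-fold rule it was 2 and 5 for KO against WT at 0 and 24 h, 13 (KO) and 17 (WT) for LPS at 12 h, 14 for LPS at 24 h in WT, 9 (KO) and 3 (WT) for 24 h against 12 h, and 7 for the difference of the 24 h responses. Shares of measured genes were not taken with the scalings, the other pseudocounts or the 1.5-fold rule. These counts of members are therefore not read as a result. The counts called in the 5 further lists were recomputed in the same way. Of these, 340 were equal to the main count or within 1.5-fold of it, and 100 were not. Depth allows counting errors well below the differences called, and the spread between cultures is unknown.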
